A study of Mus musculus with 9 samples.

Results

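Net (gene symbol Elk3) is a transcription factor of the ternary complex factor subfamily of ETS proteins, together with Elk1 and Sap-1 (Elk4). These factors bind DNA beside serum response factor (Srf), which recognises the CArG box, and they are targets of MAP kinases switched on by serum. Net is known mainly as a repressor of transcription that turns into an activator when it is phosphorylated. The data described here are the 3 arrays of NIH 3T3 cells, an established mouse embryonic fibroblast line, that stably expressed an shRNA against Net, and the 3 arrays of NIH 3T3 cells that carried the pLKO.1 vector as the control, out of 9 arrays in the series. The other 3 arrays came from cells with an shRNA against Sap-1. They entered the same model for the shared estimate of spread, and their values are given beside those of the Net shRNA cells where stated. Where no Sap-1 shRNA value is given, a change is not claimed to be particular to the Net shRNA cells.

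Every culture had been plated on fibronectin for 2 h, kept overnight without serum and then given bovine serum for 1 h before lysis. The sample protocols give the serum as 10% and the series text gives it as 20%. The labels call the 3 arrays of a group biological replicates. They do not say how many lines were derived with each construct, give no hairpin sequence and name no second hairpin against Net. The hairpin, the line and the vector insertion thus cannot be told apart from the lowering of Net. No unstimulated arrays were used, so each value is a level after serum and not a response to it.

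Expression was read on Affymetrix Mouse Gene 1.0 ST arrays as log2 values after RMA, a method that corrects background, normalizes arrays and sums up the probes of a gene. Of 28815 probe sets, 21780 were annotated to exactly 1 gene symbol, and the brightest of these per gene gave 19935 genes. The array medians lay between 7.47 and 7.54, and with 3 arrays per group the precision rests on few samples. Correlations across probe sets lay between 0.998 and 0.999 for arrays of the same group and between 0.992 and 0.995 for a Net shRNA array and a control array. The culture had the RNA profile of fibroblasts: all 12 fibroblast markers examined lay above the median of all genes in the control arrays, from 9.80 to 14.04. In Net shRNA cells 4 of the 12 fell and none rose, against 17.7% lower over all genes at or above the median level. Pdgfra, among the 4, was no longer called with the median of its expressed neighbours taken off. The collagen markers Col1a1, Col1a2, Col3a1 and Col5a1 were not called, with log2 differences from control of -0.0013, 0.040, -0.065 and 0.058. For macrophage, endothelial and epithelial markers, 8 of 9 genes each lay below that median in control cells.

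Differences below are Net shRNA minus control on the log2 scale, so that 1 is a doubling, and are followed by their standard error (SE). All rest on 3 arrays per group. A gene is said to have risen or fallen where limma's moderated test gave an adjusted p (Benjamini-Hochberg over all 19935 genes) under 0.05. By that rule 2680 genes were higher (13.4% of those tested) and 2034 lower (10.2%). The median difference over all genes was -0.0023. Of the called genes, 2151 moved by less than 1.2-fold, while 317 rose (1.59%) and 193 fell (0.968%) by at least 1.5-fold. Calls were more frequent among bright genes, with 2289 higher and 1762 lower (17.7%) of the 9968 genes at or above the median level. That level was taken over all arrays, Net shRNA arrays included.

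The targeted gene itself was lower. Elk3 read 11.48, 11.52 and 11.52 in the control arrays and 11.06, 11.08 and 11.10 in the Net shRNA arrays, so the groups did not overlap, and the difference was -0.42 ± 0.04 (SE, adjusted p = 1.1e-05). The signal thus fell by 25.5%. In the Sap-1 shRNA arrays Elk3 read 11.37, 11.40 and 11.38, a difference from control of -0.12 (limma adjusted p = 0.023). Net shRNA minus Sap-1 shRNA was -0.30 ± 0.04 in Elk3 (limma adjusted p = 7.6e-05). Elk4, which encodes the related Sap-1, read 11.03, 11.05 and 11.12 in the control arrays and 10.58, 10.66 and 10.64 in the Net shRNA arrays, also without overlap, a difference of -0.44 ± 0.04 (SE, adjusted p = 2.3e-05), or -0.28 with the median of its expressed neighbours taken off. In the Sap-1 shRNA arrays Elk4 stood at 9.50, 9.54 and 9.55. Elk1 was not called, at 0.019 ± 0.05 (adjusted p = 0.85), and neither was Srf, at 0.0056 ± 0.05 (adjusted p = 0.96).

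Since ternary complex factors meet Srf at CArG boxes, promoters from RefSeq (GRCm38.p6, from 250 bases before to 50 after an annotated start) were searched for the CArG box, a pattern that reads alike on both strands, and for the ETS core CCGGAAGT on both strands. Neither motif contains the other. Of 15561 tested genes with a promoter in the table, 254 (1.63%) held a CArG box and 939 (6.03%) the ETS core. Among genes that rose the shares were 1.35% and 11.5%, and among genes that fell they were 2.03% and 6.22%. Bright genes as a class held the ETS core more often, in 9.78% of promoters, and CArG boxes in 1.67%. Among genes that rose by at least 1.5-fold, 3 of 227 promoters held a CArG box and 4 the ETS core. Among those that fell as much, 2 of 136 held a CArG box and 3 the ETS core. These are counts of letters in a short window and not of bound sites.

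The called genes with a CArG box and the largest differences are shown because they are where the known recognition site of the Srf complex coincides with a change. The stretches below run 5′ to 3′ on the gene's own strand, lie before the annotated start, which the Lama2 stretch reaches, and carry the CArG box in capitals. The first 3 belong to genes that rose and the last 3 to genes that fell.
Cbr2: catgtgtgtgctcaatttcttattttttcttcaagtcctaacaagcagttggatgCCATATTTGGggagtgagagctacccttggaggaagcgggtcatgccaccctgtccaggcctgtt
Lgr4: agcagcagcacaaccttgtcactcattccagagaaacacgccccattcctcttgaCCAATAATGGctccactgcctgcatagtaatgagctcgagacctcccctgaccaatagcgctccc
Lmcd1: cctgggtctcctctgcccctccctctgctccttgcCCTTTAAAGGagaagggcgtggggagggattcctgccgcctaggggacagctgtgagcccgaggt
Lama2: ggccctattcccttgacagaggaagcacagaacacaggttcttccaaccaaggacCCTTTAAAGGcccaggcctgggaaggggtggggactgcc
Prune2: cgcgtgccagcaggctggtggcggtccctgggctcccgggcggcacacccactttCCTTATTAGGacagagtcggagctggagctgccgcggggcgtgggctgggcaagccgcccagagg
Myl9: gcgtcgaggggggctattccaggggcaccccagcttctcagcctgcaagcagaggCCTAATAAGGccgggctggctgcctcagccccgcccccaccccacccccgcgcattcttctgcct

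The Cbr2 stretch is chr11:120732065-120732184 (minus strand), with the box opening 108 bases before the start; Cbr2 encodes a carbonyl reductase, and it rose by 1.08 ± 0.10. Lgr4, an R-spondin receptor, rose by 0.80 ± 0.09, and its stretch is chr2:109917446-109917565 (plus strand). For Lmcd1, a LIM domain protein, the stretch is chr6:112273508-112273607 (plus strand) and the rise was 0.72 ± 0.07. The Lama2 stretch, chr10:27616943-27617036 (minus strand), has its box 39 bases before the start, and Lama2 showed the second largest fall of the named genes, described with the matrix genes. Prune2 (chr19:16955983-16956102, plus strand) read 9.89, 9.72 and 9.74 in the control arrays and 8.03, 8.38 and 8.31 in the Net shRNA arrays, a difference of -1.54 ± 0.10. Myl9, the regulatory light chain of smooth muscle and non-muscle myosin, has its printed stretch at chr2:156775248-156775367 (plus strand) and differed by -0.43 ± 0.06 (SE, adjusted p = 0.00051).

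Most of the largest rises started from low levels. In the 20 largest rises the differences ran from 2.10 to 4.92, and 16 of the 20 genes lay below the median of all genes in the control arrays, whereas none did in the Net shRNA arrays. In the 20 largest falls the differences ran from -3.08 to -1.52, 1 of the 20 lay below that median in control cells and 12 lay below it in Net shRNA cells. SEs were between 0.04 and 0.27. The widest belonged to Phxr4, a fall of -2.14 ± 0.27, whose control arrays spread over 9.65, 8.76 and 8.35. The genes were picked as non-overlapping, so the lack of overlap among them is no result.

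**Figure D1:**
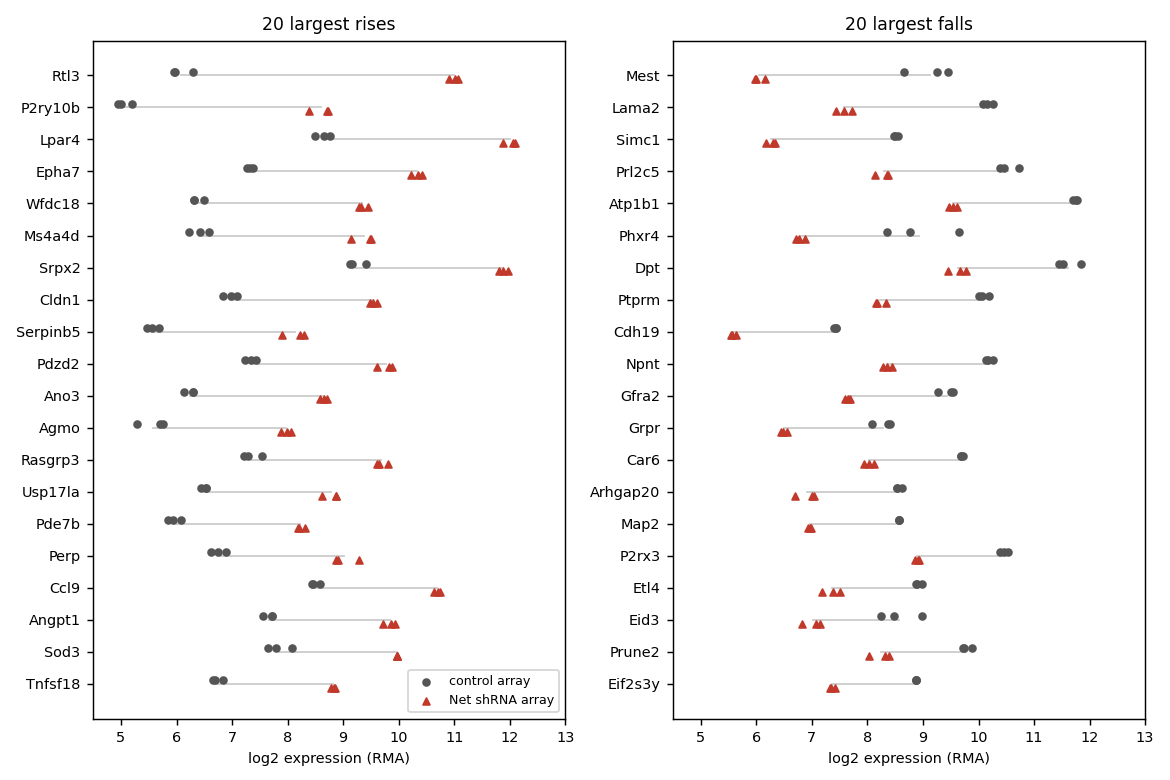
Log2 expression (x axis) in each control array (grey circles) and each Net shRNA array (red triangles) for the 20 largest rises and the 20 largest falls; grey lines join the group means. The arrays of a group lie close together beside the distance between groups, except for the control arrays of Phxr4, Mest and Eid3.

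The largest rise lay in a block of adjacent genes on the X chromosome. Rtl3, a gene derived from the gag part of a retrotransposon, read 6.29, 5.98 and 5.95 in the control arrays and 10.91, 11.07 and 11.01 in the Net shRNA arrays, a difference of 4.92 ± 0.09 or 30.3-fold. Its neighbour Lpar4, a receptor for lysophosphatidic acid, a lipid carried by serum, read 8.49, 8.66 and 8.76 in the control arrays and 11.87, 12.06 and 12.09 in the Net shRNA arrays, a difference of 3.37 ± 0.08. The next genes are P2ry10, a receptor for lysophosphatidylserine, and its relative P2ry10b. P2ry10b went from 4.95, 5.0 and 5.20 to 8.38, 8.72 and 8.70 (3.55 ± 0.10), and P2ry10 from 4.21, 4.37 and 4.33 to 4.60, 4.68 and 5.17 (0.51 ± 0.12). P2ry10 thus stayed among the dimmest genes of the array. Because the members of this pair are near copies, signal from one may reach the probes of the other, and P2ry10 is reported as uncertain. The nearest measured genes beyond both ends of the block did not pass the test: Gm5127 and Cysltr1 on one side differed by -0.014 and -0.036, and Gpr174 and Itm2a on the other by -0.051 and 0.074. These flanking genes were dim, with control means of 6.19, 5.17, 4.75 and 5.46 against a median of 7.81 over all genes. They therefore cannot show where the change ends. Further out on the Gm5127 side, Taf9b rose by 0.20 ± 0.06 (SE, adjusted p = 0.044), a call lost without Net shRNA replicate 2 or 3 or control replicate 1 or 3 (limma adjusted p = 0.16, 0.099, 0.15 and 0.069). The Sap-1 shRNA cells, set against the same control arrays, showed differences of 0.76 for Rtl3, 0.73 for Lpar4 and -0.087 for P2ry10b. Net shRNA exceeded Sap-1 shRNA by 4.16 ± 0.09, 2.64 ± 0.08 and 3.64 ± 0.10 (adjusted p = 1.4e-10, 8.7e-10 and 5.2e-10).

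Some falls also touched neighbours. Lama2 lies beside Ptprk, a receptor-type phosphatase, which fell (difference of -1.07 ± 0.04), while Arhgap18 on the other side of Lama2 and Themis beyond Ptprk differed by 0.032 and 0.052. Arhgap18 was bright, at a control mean of 9.44, but Themis was dim, at 4.88, so a change there could be missed. Prl2c5, a gene of the prolactin family known as a proliferin, read 10.46, 10.73 and 10.39 in the control arrays and 8.14, 8.36 and 8.37 in the Net shRNA arrays (-2.23 ± 0.09). It sits between Gpr137b-ps (-0.98 ± 0.06) and Gpr137b (-1.11 ± 0.07), and 7 of the 10 nearest measured genes fell. Gpr137b-ps is a copy of Gpr137b, so their probes may share signal. Around Epha7, 4 of the 10 nearest measured genes were called, Bach2 lowest at -0.74 ± 0.08 and Casp8ap2 highest at 0.30 ± 0.06. Around Mest and Simc1 few neighbours were called. Mest, an imprinted gene expressed from the paternal copy, dropped from 8.66, 9.25 and 9.45 to 6.16, 5.97 and 6.0 (-3.08 ± 0.15), and 9 of its 10 nearest measured genes did not pass the test, Mir335 inside it included (-0.033). Among the Mest neighbours only Cep41, Copg2 and Klf14 lay above the median of all genes in control cells. Mir335 read 5.24 in control and 5.20 in Net shRNA cells, so a change in it or the other dim neighbours could be missed. Simc1, a SUMO-interacting protein, read 8.55, 8.49 and 8.47 in the control arrays and 6.18, 6.33 and 6.30 in the Net shRNA arrays (-2.24 ± 0.05), with 8 of 10 neighbours not called. In the Sap-1 shRNA arrays Mest read 5.96, 5.96 and 5.88, and the Net minus Sap-1 difference did not pass the test, at 0.11 ± 0.15 (adjusted p = 0.69). Simc1 was not lower there: its Net minus Sap-1 difference was -2.43 ± 0.05 (adjusted p = 1.5e-10).

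In the order of the genes along the chromosomes, 9 runs of at least 3 adjacent measured genes were called in 1 direction at 1.5-fold or more; this search was made after the values were seen and carries no test. Among the higher runs were Tnmd, Tspan6 and Srpx2 on X (1.31, 1.30 and 2.65), Ccl5, Ccl9 and E230016K23Rik on chromosome 11 (1.27, 2.21 and 0.75), Parp14, Dtx3l and Parp9 on 16 (0.75, 0.65 and 0.59), and Ddt, Gstt3 and Gstt1 on 10 (0.59, 0.67 and 0.63). Chromosome 8 held a pair of such runs, Gins4, Golga7 and Sfrp1 (0.77, 0.64 and 0.83) and Sap30, Hmgb2 and Galnt7 (1.22, 0.85 and 0.60). The lower runs were Gpr137b-ps to Gpr137b, a stretch of protocadherin genes and Kdm5d, Eif2s3y and Uty on the Y chromosome.

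**Figure D2:**
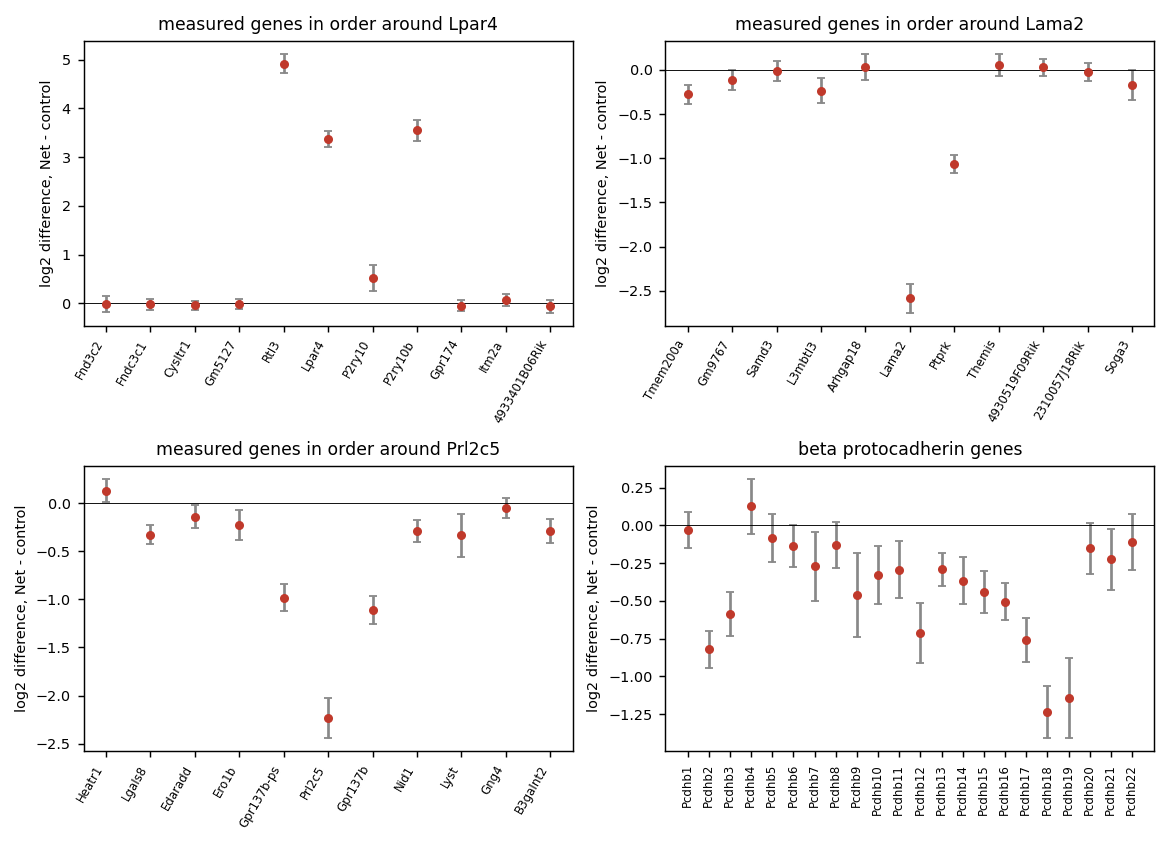
Net shRNA minus control log2 difference with its 95% confidence interval for the measured genes in chromosomal order around Lpar4, Lama2 and Prl2c5, and for the beta protocadherin genes by number. Rtl3, Lpar4 and P2ry10b stand above neighbours that were dim and, P2ry10 aside, not called. Ptprk is lower beside Lama2, and Pcdhb18 and Pcdhb19 lie lowest in their family.

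Whole chromosomes also differed in their balance of calls. Among genes at or above the median level, 329 of 557 on chromosome 8 were higher (59.1%) and 21 lower (3.77%), with a median difference of 0.20. On chromosome 11 386 of 866 were higher (44.6%) and 41 lower (4.73%), with a median of 0.13. Chromosomes 1, 5 and 10 leaned the other way: 34.9%, 35.2% and 31.7% of their genes were lower, with medians of -0.082, -0.069 and -0.075. On the other 15 chromosomes tested, 20.4% of genes were higher and 16.4% lower, and the medians lay between -0.043 and 0.033. The chromosome 8 median was 0.19, 0.22 and 0.20 in the 3 Net shRNA arrays, against -0.034 to 0.026 in the control arrays. A running median over 50 bright genes reached 0.42 on chromosome 8 and -0.25 on chromosome 5, so the shift was not even along them. The Sap-1 shRNA cells had a median of 0.073 on chromosome 8 and 0.041 on chromosome 11. Because of this, each difference was also computed after the median of the 50 nearest expressed neighbours had been taken off in every array. Irf2, Fat1 and Galnt7, all on chromosome 8, went from 0.47, 0.46 and 0.60 to 0.062, 0.089 and 0.22. The largest changes hardly moved, for example 3.38 for Lpar4 and -2.50 for Lama2. Among genes at or above the median level, 131 were then higher and 130 lower on chromosome 8, and 226 and 159 on chromosome 11. On chromosomes 1, 5 and 10 the counts became 120 and 139, 120 and 128, and 89 and 97. Taking off neighbours levels such counts by construction. The part of chromosome-wide shifts in the calls was not tested further.

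Of the genes on the Y chromosome, Eif2s3y read 8.87, 8.88 and 8.88 in the control arrays and 7.33, 7.41 and 7.33 in the Net shRNA arrays, and 10.21, 10.16 and 10.33 in the Sap-1 shRNA arrays. Eif2s3y encodes a translation initiation factor subunit. Kdm5d, a histone demethylase, and Uty, a relative of histone demethylases, fell (differences of -1.11 ± 0.05 and -1.14 ± 0.08). All 3 were thus lower in every Net shRNA array than in any control array. In the Sap-1 shRNA cells the differences from the same control arrays were 1.36, 1.15 and 1.60. Sry and Usp9y were not called (-0.13 and 0.088), and Usp9y was among the dimmest genes in all groups.

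**Figure D3:**
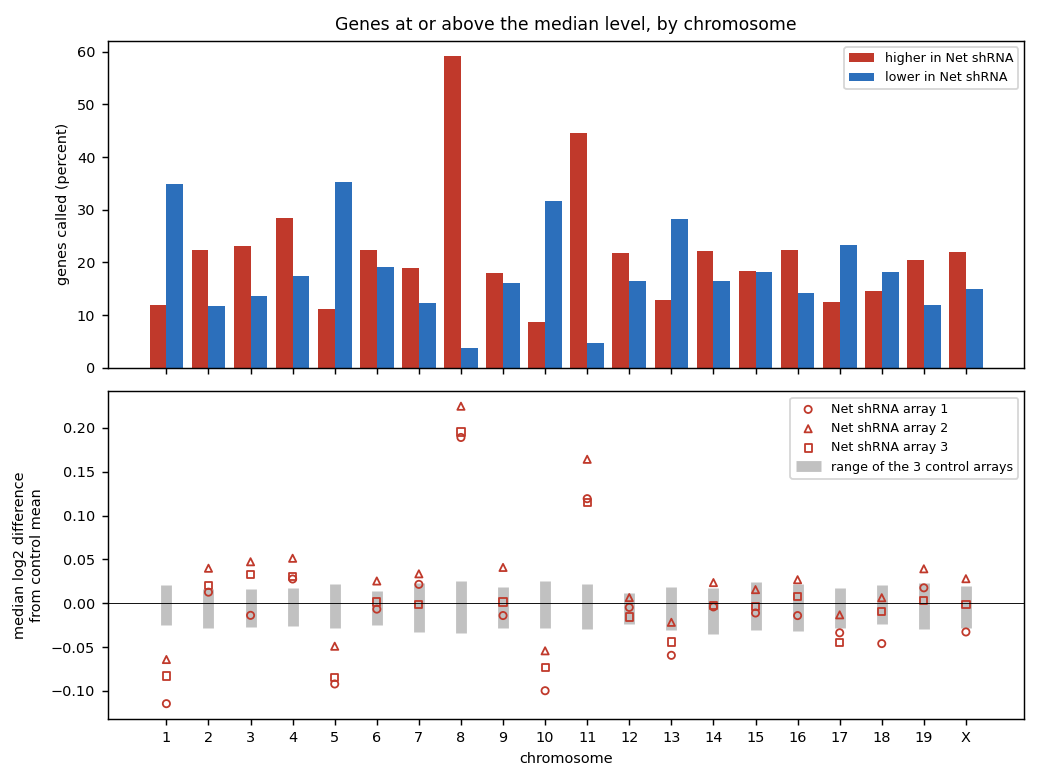
Upper: percent of genes at or above the median level called higher (red) or lower (blue) in Net shRNA cells, by chromosome. Lower: median log2 difference from the control mean in each Net shRNA array, with the range of the control arrays as grey bars. Chromosomes 8 and 11 lie above and 1, 5 and 10 below the control range in all 3 Net shRNA arrays.

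The functions beyond single genes were described through 51 families of genes named by symbol, 4354 genes in all, whose counts are read against the 13.4% higher and 10.2% lower over all genes. Receptor tyrosine kinases, which carry growth factor signals across the membrane, fell more often than they rose, with 6 higher and 12 lower of 55. Epha7, a receptor for ephrins on neighbouring cells, had the largest rise: it read 7.31, 7.37 and 7.28 in the control arrays and 10.23, 10.42 and 10.35 in the Net shRNA arrays, a difference of 3.01 ± 0.05 (SE, adjusted p = 2.2e-10). Epha7 was also high in the Sap-1 shRNA arrays (9.98, 9.98 and 10.08). Net shRNA exceeded Sap-1 shRNA by 0.32 ± 0.05 in Epha7 (limma adjusted p = 0.00096). Tek, the receptor of angiopoietins, rose from 6.71, 6.77 and 6.74 to 8.59, 8.60 and 8.55 (1.84 ± 0.05), and Angpt1, a ligand of Tek, from 7.56, 7.73 and 7.73 to 9.72, 9.93 and 9.87 (2.17 ± 0.09). Both members of this ligand and receptor pair thus rose. Net shRNA exceeded Sap-1 shRNA by 2.47 ± 0.09 in Angpt1 and 2.14 ± 0.05 in Tek (adjusted p = 7.5e-09 and 3e-10). Tek is also on the endothelial marker list, of which 2 of 9 genes rose, Tek and Emcn (0.27 ± 0.07); Cdh5 and Vwf, defining members, differed by 0.19 and 0.089. The call of Emcn was lost without Net shRNA replicate 2 or 3 or any 1 control array (limma adjusted p from 0.052 to 0.07). The summed level of that list, Tek included, was 10.21 to 10.25 (log2) in control arrays and 10.56 to 10.63 in Net shRNA arrays. That sum is thus not independent of the rise of Tek, and the part of the other markers was not tested. Egfr rose by 0.56 ± 0.06, and Styk1, Fgfr2 and Ror2 fell (differences of -0.87 ± 0.05, -0.41 ± 0.04 and -0.32 ± 0.05). Pdgfra fell (difference of -0.26 ± 0.06), and that became -0.037 with its chromosome 5 neighbours taken off (adjusted p = 0.68).

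Receptors for lysophospholipids and nucleotides, ion channels gated by ATP included, rose in 8 of 31 cases and fell in 2. Besides the X-linked block, S1pr1, the receptor of sphingosine 1-phosphate, rose from 9.16, 9.16 and 9.16 to 9.97, 10.02 and 9.95 (0.82 ± 0.04), while the widely expressed lysophosphatidic acid receptor Lpar1 differed by -0.23 ± 0.05. The ATP-gated channel P2rx3 read 10.45, 10.39 and 10.54 in the control arrays and 8.91, 8.93 and 8.85 in the Net shRNA arrays, a difference of -1.56 ± 0.05, and stood higher than control in the Sap-1 shRNA arrays (11.66, 11.67 and 11.66). Receptors for peptides, amines and related ligands changed in few cases, with 10 higher and 7 lower of 144, yet some changes were large. Agtr2, the type 2 receptor of angiotensin, went from 9.24, 9.24 and 9.49 to 10.95, 11.03 and 11.11 (1.71 ± 0.09). Lgr5, an R-spondin receptor known as a stem cell marker, rose by 1.69 ± 0.05, Npy1r, for neuropeptide Y, by 1.61 ± 0.06, and Bdkrb1, for bradykinin, by 1.22 ± 0.06. In the other direction Grpr, for gastrin-releasing peptide, dropped from 8.08, 8.41 and 8.37 to 6.48, 6.55 and 6.45 (-1.79 ± 0.08), and Calcrl, which binds adrenomedullin together with its partner proteins, fell (difference of -0.53 ± 0.06). Adrenomedullin itself (Adm) rose by 0.96 ± 0.04. Among orphan and adhesion receptors, 7 rose and 11 fell of 102, and Gpr149, Gpr39 and Adgrg6 rose by 1.74, 1.46 and 0.96. In the Sap-1 shRNA cells these genes differed from the same control arrays by 3.22, 3.06 and -2.495. Gfra2, the binding subunit for neurturin, fell from 9.28, 9.51 and 9.54 to 7.65, 7.59 and 7.69 (-1.80 ± 0.06). Agtr2, Grpr and Gfra2 differed from control by -2.65, -2.14 and -1.46 in the Sap-1 shRNA cells.

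Receptors of the Wnt, TGF-beta and Notch pathways moved in both directions. Of 16 frizzled, patched and Wnt coreceptor genes, 3 rose and 4 fell. Fzd1 read 11.41, 11.46 and 11.49 in the control arrays and 10.34, 10.48 and 10.40 in the Net shRNA arrays (-1.05 ± 0.04), and Fzd7 fell (difference of -0.74 ± 0.05). The Sap-1 shRNA cells differed from control by -1.04 in Fzd1 and 0.86 in Fzd7. Fzd8 read 8.52, 8.65 and 8.61 in the control arrays and 9.50, 9.72 and 9.63 in the Net shRNA arrays (1.02 ± 0.06), and Fzd4 rose by 0.41 ± 0.07. The coreceptors split likewise, with Lrp5 at 0.65 ± 0.05 and Lrp6 at -0.35 ± 0.06. The secreted Wnt antagonist Sfrp2 rose from 10.28, 10.40 and 10.51 to 12.28, 12.30 and 12.30 (1.90 ± 0.09). Sfrp1 rose by 0.83 ± 0.08, or by 0.49 with its chromosome 8 neighbours taken off. Dkk3 and Wnt2 fell (differences of -0.90 ± 0.07 and -0.77 ± 0.06). Among TGF-beta superfamily receptors, 3 rose and 4 fell of 17: Acvr2a, an activin receptor, rose by 0.84 ± 0.06, and Tgfbr3 (betaglycan) and Bmpr2 fell (differences of -0.57 ± 0.06 and -0.42 ± 0.05). Fst, which binds and blocks activin, rose from 9.12, 9.24 and 8.97 to 10.47, 10.64 and 10.44 (1.41 ± 0.07), Tgfb2 rose by 1.00 ± 0.06, and Inha, the inhibin alpha subunit, fell (difference of -0.77 ± 0.06). Over all ligands and extracellular regulators of this superfamily, 5 rose and 9 fell of 54. Notch1 rose from 8.34, 8.39 and 8.24 to 9.38, 9.77 and 9.61 (1.27 ± 0.09).

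Lipoprotein and scavenger receptors, which take up lipoproteins and other ligands from the medium, had 8 members lower and none higher of 26, against 10.2% lower over all genes. Vldlr read 9.10, 9.10 and 9.12 in the control arrays and 7.73, 7.61 and 7.47 in the Net shRNA arrays (-1.51 ± 0.06). Lrp1 had the highest control level of all genes that changed by 1.5-fold or more, 12.96 ± 0.08 (SD). It fell to 12.30 ± 0.20 (-0.66 ± 0.09). Sorcs2 and Lrp4 fell (differences of -0.53 ± 0.07 and -0.37 ± 0.06). With neighbours taken off, 9 members were lower and 1 higher. Of the receptor-type tyrosine phosphatases 5 fell and 2 rose of 20, led by Ptprm, a receptor that binds its own kind on the next cell, from 10.06, 10.01 and 10.18 to 8.16, 8.34 and 8.17 (-1.87 ± 0.06).

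Cytokine and chemokine genes rose more often than the background, 20 of 107 (18.7%), and 5 fell; with neighbours taken off 21 rose and 10 fell. The median over the family was -0.0022, near that of all genes, since most members were dim and not called. Of the 107, 19 lay at or above the median level of all genes, and 11 of these 19 rose. Over all such genes 2289 of 9968 rose. A gene can reach that level because it rose, so the 11 of 19 is not independent of the rises. The means of Ccl5, for example, were 7.65 in control and 8.92 in Net shRNA arrays, around a median level of 7.81. Ccl9, a chemokine for monocytes, read 8.44, 8.45 and 8.58 in the control arrays and 10.63, 10.71 and 10.75 in the Net shRNA arrays (2.21 ± 0.05). Tnfsf18, the ligand of the receptor GITR, went from 6.83, 6.65 and 6.69 to 8.78, 8.85 and 8.84 (2.10 ± 0.06), Cxcl5, which draws neutrophils, rose by 1.58 ± 0.09 and Ccl5 by 1.27 ± 0.06. Ccl2, the main monocyte chemokine of fibroblasts and among the brightest genes on the array, rose from 12.01 ± 0.04 to 12.85 ± 0.03 (0.83 ± 0.06). The membrane-bound chemokine Cx3cl1 fell (difference of -0.72 ± 0.04). Macrophage markers were at low levels, with summed levels of 10.06 to 10.09 (log2) in control arrays and 10.18 to 10.25 in Net shRNA arrays, and 2 of 9 rose, Cd14 (0.41 ± 0.05) and Cd68 (0.23 ± 0.06). Cd68 did not pass without control replicate 3 (limma adjusted p = 0.053) and stood at 0.086 with neighbours taken off. Their part in the chemokine values was not tested. Of cytokine receptors, 9 rose and 12 fell of 101; with neighbours taken off the counts were 15 and 10. Eda2r, a TNF-family receptor, rose by 1.34 ± 0.09, and Il1rl2, the receptor of interleukin-36, fell (difference of -1.25 ± 0.07). The Sap-1 shRNA cells differed from control by 1.69 in Eda2r and -2.09 in Il1rl2.

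Growth factors were split evenly, with 8 higher and 8 lower of 66; with neighbours taken off the counts were 6 and 12. Igf1 rose from 7.40, 7.43 and 7.5 to 8.52, 8.40 and 8.43 (1.00 ± 0.05). Gas6, the ligand of Tyro3, Axl and Mertk, rose by 1.27 ± 0.06. Gdnf, Pdgfc and Hgf fell (differences of -0.42 ± 0.08, -0.35 ± 0.04 and -0.32 ± 0.07). Semaphorins, slits, netrins and ephrins, guidance cues first known from axons, fell in 10 of 37 cases (27.0%) and rose in 2; with neighbours taken off 9 fell and 5 rose. Sema3c read 8.98, 9.06 and 9.45 in the control arrays and 7.69, 7.94 and 7.65 in the Net shRNA arrays (-1.41 ± 0.12) and Sema5a 10.22, 10.22 and 10.23 in the control arrays and 9.07, 9.23 and 9.11 in the Net shRNA arrays (-1.08 ± 0.05). Ntn1 (netrin-1) fell (difference of -0.67 ± 0.08), whereas Unc5c, a netrin receptor, rose by 1.02 ± 0.10. Sema6a and Sema7a, both membrane-anchored, rose (0.69 ± 0.09 and 0.62 ± 0.11).

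Of 101 serpin, cystatin and related protease inhibitor genes, 8 rose and 5 fell, and with neighbours taken off 14 rose and 6 fell. Serpinb5, known as maspin, went from 5.46, 5.68 and 5.56 to 7.90, 8.23 and 8.29 (2.58 ± 0.09). Wfdc18 and Slpi, small inhibitors of the whey acidic protein type, rose by 2.97 ± 0.06 and 1.24 ± 0.05, and Spink5 by 1.60 ± 0.07. Serpinb5, together with Perp, a desmosome protein (2.27 ± 0.13), and Cldn1, a claudin of tight junctions, is typical of epithelia. Cldn1 read 7.08, 6.98 and 6.84 in the control arrays and 9.49, 9.61 and 9.54 in the Net shRNA arrays (2.58 ± 0.06). Of the 9 epithelial markers 2 rose, Cdh1 by 0.38 ± 0.07 (0.20 with chromosome 8 neighbours taken off) and Krt14 by 0.58 ± 0.13, and Epcam differed by 0.055. The summed level of the epithelial list was 10.06 to 10.22 in control arrays and 10.18 to 10.38 in Net shRNA arrays, so these ranges overlapped, and its part in the rises was not tested. Metalloproteinases and their inhibitors fell in 13 of 84 cases and rose in 7; with neighbours taken off 27 fell. Adam23 fell (difference of -0.76 ± 0.05), and Adamtsl1, a matrix protein without protease activity, rose by 1.43 ± 0.08.

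Of 21 laminin, nidogen and other basement membrane genes, 4 rose and 5 fell, and of 44 collagens 6 rose and 3 fell. Lama2, the alpha chain of the laminins of muscle and nerve sheath, read 10.25, 10.09 and 10.15 in the control arrays and 7.43, 7.73 and 7.57 in the Net shRNA arrays (-2.59 ± 0.07 (SE, adjusted p = 2.7e-09)), a fall of 6.01-fold. Lama4, another laminin alpha chain, read 10.39, 10.30 and 10.53 in the control arrays and 11.63, 11.82 and 11.80 in the Net shRNA arrays, a difference of 1.34 ± 0.08. The chains thus moved in opposite directions. Npnt (nephronectin), an integrin ligand, fell from 10.17, 10.27 and 10.14 to 8.36, 8.45 and 8.28 (-1.83 ± 0.06), and Hmcn1 (hemicentin) differed by -1.08 ± 0.07. The Hmcn1 value is that of the brightest of its 77 probe sets, and its direction and call held with their mean. Col4a1 and Col4a2, the chains of the main basement membrane collagen, rose by 0.80 ± 0.05 and 0.66 ± 0.04, and Col11a1 by 0.88 ± 0.05. These collagen chains lie on chromosomes 8 and 3, and with neighbours taken off the rises of Col4a1, Col4a2 and Col11a1 were 0.63, 0.49 and 0.80. In the Sap-1 shRNA cells Lama2 differed from the same control arrays by -1.55 and Npnt by -1.70. Net shRNA was lower than Sap-1 shRNA by a difference of -1.04 ± 0.07 in Lama2 (adjusted p = 1.2e-06), and Npnt did not pass that test, at -0.14 ± 0.06 (adjusted p = 0.11).

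Proteoglycan and hyaluronan genes were higher in 8 and lower in 9 of 48 cases. Fmod (fibromodulin) and Prelp, small leucine-rich proteoglycans that bind collagen, rose by 1.57 ± 0.07 and 1.24 ± 0.04, and Optc, a neighbour of both on chromosome 1, by 0.47 ± 0.07. Has2, the main hyaluronan synthase of fibroblasts, read 10.61, 10.52 and 10.74 in the control arrays and 11.87, 11.92 and 11.86 in the Net shRNA arrays (1.26 ± 0.06). Gpc6, a glypican, fell from 11.19, 11.15 and 11.31 to 10.04, 10.31 and 10.13 (-1.05 ± 0.07), and Vcan (versican) differed by -0.48 ± 0.06. Among the other glycoproteins of the fibroblast matrix, 9 rose and 10 fell of 50. Dpt (dermatopontin) read 11.46, 11.52 and 11.85 in the control arrays and 9.45, 9.66 and 9.77 in the Net shRNA arrays (-1.98 ± 0.10), and Smoc2, Thbs2 and Svep1 fell (differences of -1.23 ± 0.06, -0.72 ± 0.04 and -0.69 ± 0.08). Srpx2, a secreted sushi-domain protein, rose from 9.17, 9.13 and 9.40 to 11.80, 11.88 and 11.96 (2.65 ± 0.07), and Ecm1 and Smoc1 by 1.19 ± 0.05 and 0.90 ± 0.06.

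**Figure D4:**
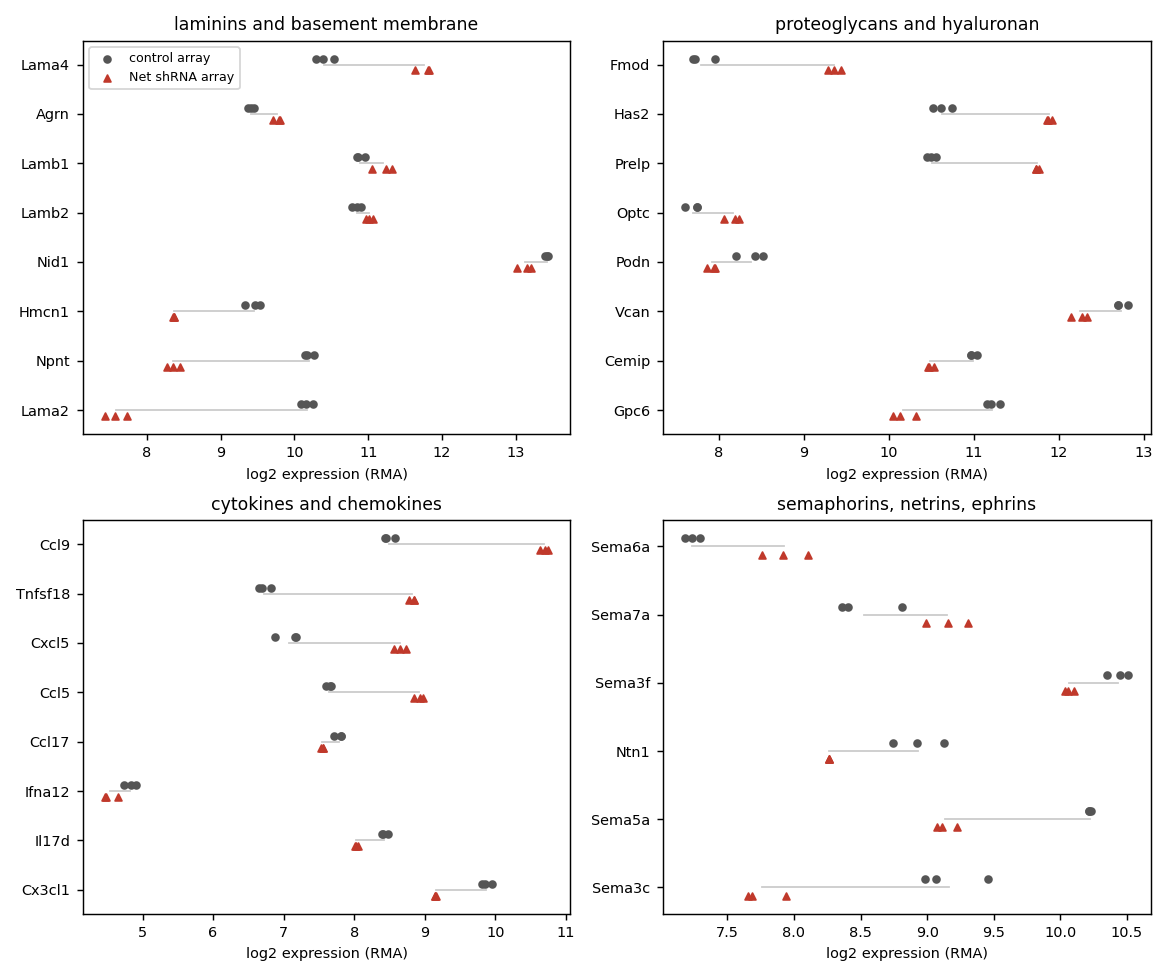
Log2 expression in each control array (grey circles) and Net shRNA array (red triangles) for the called members with the largest differences in 4 families. Lama4 is higher and Lama2 lower, Fmod, Has2 and Prelp are higher while Gpc6 and Vcan are lower, chemokines Ccl9, Cxcl5 and Ccl5 are higher, and Sema3c and Sema5a are lower.

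Beta protocadherins and immunoglobulin-type adhesion molecules fell more often than they rose. Of 72 cadherins and protocadherins, 17 fell (23.6%) and 7 rose, and with neighbours taken off 20 fell and 7 rose. Most of the falls were beta protocadherins, adhesion molecules encoded side by side in 1 cluster: 13 of 22 measured Pcdhb genes fell and none rose, with differences from -1.23 to -0.29. Pcdhb18 read 8.30, 7.98 and 7.98 in the control arrays and 6.77, 6.91 and 6.88 in the Net shRNA arrays (-1.23 ± 0.08), and Pcdhb19, Pcdhb2 and Pcdhb17 fell (differences of -1.14 ± 0.12, -0.82 ± 0.05 and -0.76 ± 0.07). The 9 others lay between -0.27 and 0.13. These genes resemble one another, so part of the signal of a probe set may come from its relatives. In the counts before neighbours were taken off, the remaining cadherins and protocadherins rose more often than they fell. Outside the cluster, Cdh19 went from 7.40, 7.43 and 7.43 to 5.56, 5.63 and 5.54 (-1.85 ± 0.04), Pcdh7 fell (difference of -1.46 ± 0.06) and so did the giant cadherin Fat4 (-1.40 ± 0.09), whereas Pcdh9 rose from 7.05, 7.34 and 7.28 to 9.19, 9.40 and 9.28 (2.07 ± 0.07). Immunoglobulin-type adhesion molecules fell in 14 of 98 cases and rose in 4. Ncam1, the neural cell adhesion molecule, read 11.67, 11.69 and 11.68 in the control arrays and 10.80, 10.88 and 10.81 in the Net shRNA arrays (-0.85 ± 0.05), Nectin1 fell (difference of -0.57 ± 0.05), and Lrrn3 rose by 1.44 ± 0.08. Among 27 integrin subunits 7 rose and 3 fell, and with neighbours taken off 5 rose and 6 fell. Itga1, the collagen receptor subunit, rose by 0.95 ± 0.05, and Itga6 and Itga5, subunits of laminin and fibronectin receptors, fell (differences of -0.41 ± 0.06 and -0.33 ± 0.05).

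Leucine zipper factors and 3 families of zinc finger factors fell more often than they rose. Of 50 leucine zipper factors of the AP-1, ATF, CREB, CEBP and MAF groups, 16 fell (32.0%) and 3 rose, with a median of -0.052. Of these factors 39 were bright, and 15 of the 39 fell, against 17.7% of all bright genes. Maf read 9.89, 10.15 and 10.09 in the control arrays and 8.94, 8.95 and 8.95 in the Net shRNA arrays (-1.09 ± 0.07), and Bach2, Creb3l1 and Jund fell (differences of -0.74 ± 0.08, -0.66 ± 0.06 and -0.42 ± 0.05). Cebpd and Hlf rose by 0.66 ± 0.07 and 0.67 ± 0.05. Kruppel-like and Sp factors fell in 7 of 25 cases, among them Klf9 (-0.62 ± 0.06) and Klf4 (-0.40 ± 0.05), and rose in 1, Klf12 (0.53 ± 0.06). Of 115 Egr, Snail, Gli, Gata and related zinc finger regulators, 25 fell (21.7%) and 4 rose. Gata6 read 9.93, 10.05 and 9.96 in the control arrays and 8.55, 8.66 and 8.63 in the Net shRNA arrays (-1.37 ± 0.05), and the Hedgehog effector Gli2 and its relative Glis3 fell (differences of -0.66 ± 0.04 and -0.71 ± 0.05). The largest of these families, 371 KRAB and other Zfp genes, had 57 lower and 14 higher, and Zfp503 fell (difference of -0.90 ± 0.08). In each of these 4 families the falls outnumbered the rises under every scaling tried.

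Other families of transcription factors were mixed. Nr4a3, an orphan nuclear receptor induced by serum, went from 7.79, 8.0 and 8.24 to 9.39, 9.48 and 9.35 (1.39 ± 0.09), and Nr4a2 rose by 0.82 ± 0.05. Over all nuclear receptors 6 rose and 9 fell of 43, with Thrb at -0.54 ± 0.06 and Nr2f1 at -0.50 ± 0.07. Hoxb9 read 8.35, 8.29 and 8.44 in the control arrays and 9.75, 9.71 and 9.67 in the Net shRNA arrays (1.35 ± 0.05), while Dlx1, Hoxd8 and Shox2 fell (differences of -0.68 ± 0.06, -0.61 ± 0.10 and -0.54 ± 0.09). Homeobox genes as a whole had 11 higher and 19 lower of 169. Among ETS factors other than the ternary complex factors, 4 rose and 2 fell of 23; Fli1 rose from 7.51, 7.45 and 7.44 to 8.18, 8.33 and 8.08 (0.73 ± 0.06) and Ets2 fell (difference of -0.25 ± 0.05). Forkhead factors had 3 higher and 3 lower of 43, Sox and Tcf/Lef factors 1 higher and 4 lower of 29, and STAT, IRF, SMAD, RUNX and related factors 17 higher and 22 lower of 123. Of 101 helix-loop-helix factors and Id proteins 10 rose and 8 fell. Id3, an inhibitor of helix-loop-helix factors, rose by 0.63 ± 0.06 and Id4 fell (difference of -0.43 ± 0.05), and Rb1, the retinoblastoma protein, rose by 0.76 ± 0.06.

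Signalling genes inside the cell changed as well. Rgs16, which ends signalling by G proteins, rose from 10.13, 10.10 and 10.20 to 11.67, 11.66 and 11.62 (1.51 ± 0.04), and Rgs2 by 0.64 ± 0.06. Dusp4, a MAP kinase phosphatase, fell (difference of -0.63 ± 0.13) although its chromosome 8 neighbours were higher, and with these taken off it stood at -0.99. Rasgrp3, an exchange factor that activates Ras and Rap, read 7.21, 7.29 and 7.55 in the control arrays and 9.80, 9.61 and 9.65 in the Net shRNA arrays (2.34 ± 0.08). Arhgap20, a GTPase-activating protein, went from 8.62, 8.53 and 8.54 to 6.70, 7.04 and 7.0 (-1.65 ± 0.08), but in the Sap-1 shRNA arrays it stood at 10.12, 10.07 and 10.21, above control. Phosphodiesterases, which break down cyclic nucleotides, split by type: Pde7b went from 5.94, 6.07 and 5.84 to 8.18, 8.32 and 8.20 (2.28 ± 0.07), Pde1a and Pde7a rose by 1.41 ± 0.06 and 1.21 ± 0.05, and Pde8b, Pde3a and Pde4d fell (differences of -0.99 ± 0.05, -0.58 ± 0.08 and -0.46 ± 0.06). The family of cyclic nucleotide enzymes and their kinases had 10 higher and 15 lower of 104.

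**Figure D5:**
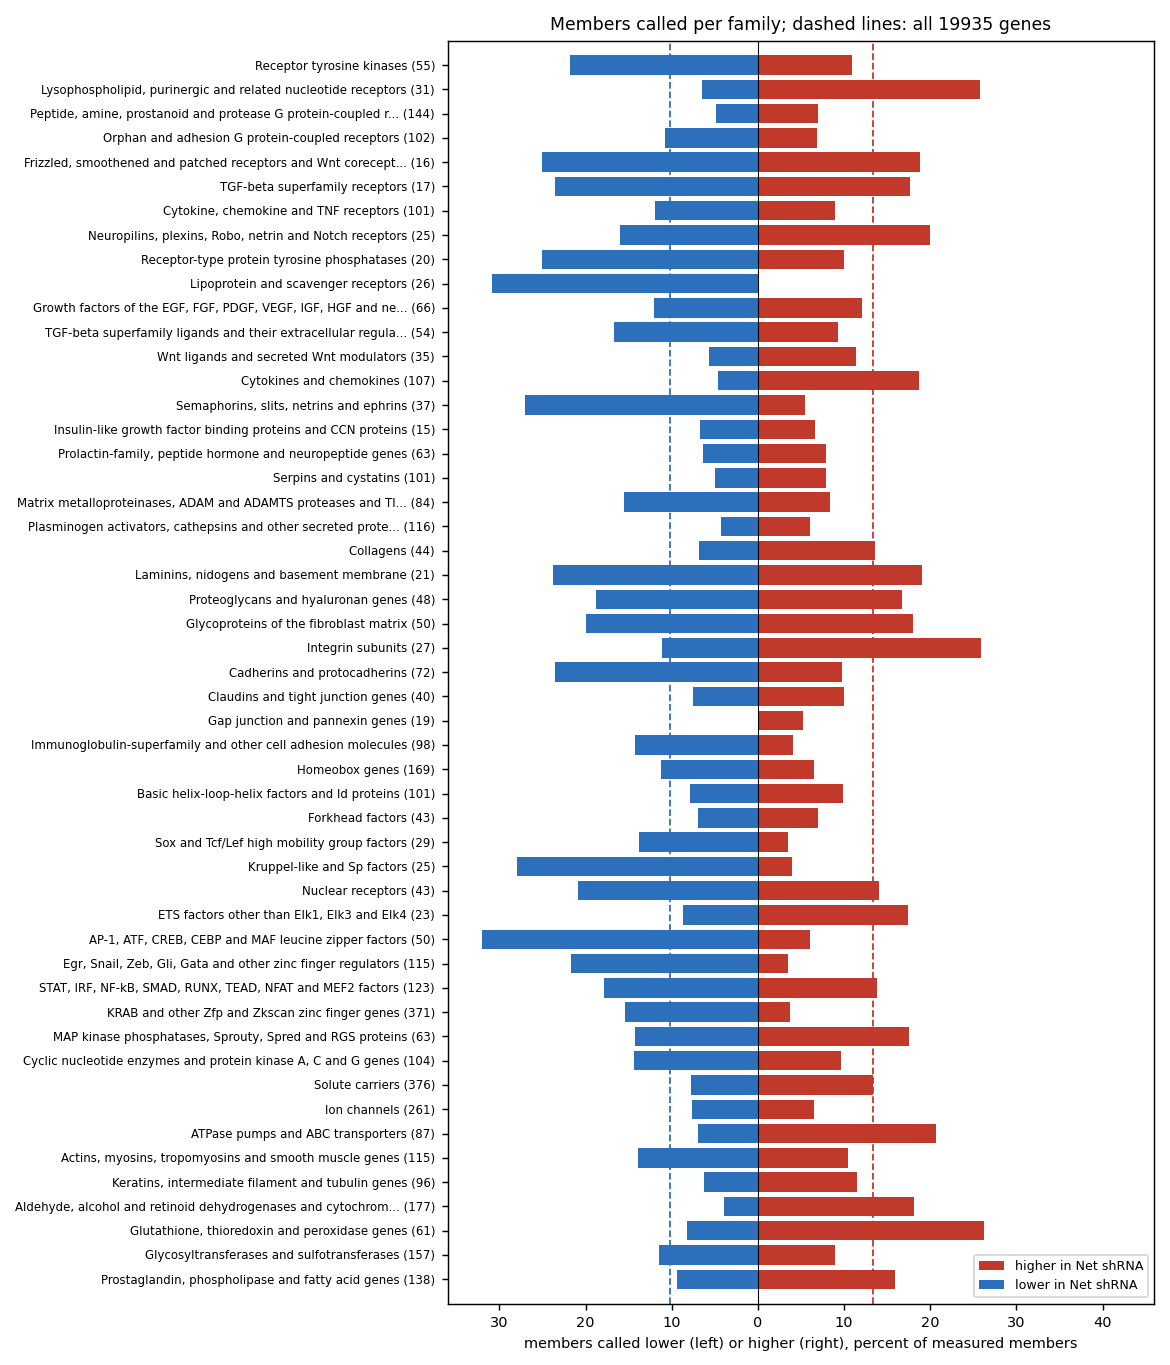
Percent of the measured members called lower (blue, left) or higher (red, right) in Net shRNA cells for each of the 51 families, with the number of members in brackets; dashed lines mark 10.2% lower and 13.4% higher over all genes. Leucine zipper factors and lipoprotein receptors extend furthest left, and glutathione genes and integrins furthest right.

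Transport genes included 1 of the strongest falls. Atp1b1, the beta subunit of the sodium and potassium pump, read 11.78, 11.70 and 11.76 in the control arrays and 9.47, 9.54 and 9.62 in the Net shRNA arrays (-2.20 ± 0.06 (SE, adjusted p = 1.4e-09)). Fxyd5, a small protein that modulates this pump, rose from 9.35, 9.68 and 9.51 to 10.99, 10.99 and 10.99 (1.48 ± 0.07). In the Sap-1 shRNA arrays Atp1b1 read 9.45, 9.61 and 9.62, with a Net minus Sap-1 difference of -0.015 ± 0.06 (adjusted p = 0.9). Fxyd5 differed from control by 2.38 in the Sap-1 shRNA cells. ATPases and ABC transporters as a family rose in 18 of 87 cases (20.7%) and fell in 6. Of 376 solute carriers 50 rose and 29 fell, and Slc7a2, a carrier of cationic amino acids, rose by 1.38 ± 0.06, or 1.06 with its chromosome 8 neighbours taken off. Among 261 ion channel genes 17 rose and 20 fell, led by Ano3 (2.40 ± 0.07) and the kainate receptor Grik2 (-1.07 ± 0.07).

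Redox enzymes and dehydrogenases rose more often than the background. Of 61 glutathione, thioredoxin and peroxidase genes 16 rose (26.2%) and 5 fell, with a median of 0.071. Most members were bright, 47 of the 61, and 15 of the 16 that rose were among these 47. Over all bright genes 2289 of 9968 rose. Against bright genes the excess of this family was thus smaller than that of 26.2% over 13.4%. Sod3, the extracellular superoxide dismutase, read 7.80, 7.65 and 8.07 in the control arrays and 9.97, 9.97 and 9.97 in the Net shRNA arrays (2.13 ± 0.09). Hmox1, which degrades heme, rose from 11.84 ± 0.12 to 12.62 ± 0.05 (0.78 ± 0.06), and Ggt7 by 0.90 ± 0.06. Of 177 aldehyde, alcohol and retinoid dehydrogenases and cytochromes P450, 32 rose (18.1%) and 7 fell. Akr1c18, which inactivates progesterone, went from 6.26, 6.68 and 6.45 to 8.33, 8.43 and 8.23 (1.86 ± 0.09), and Aldh1a7, Aldh3a1 and Hsd11b1 rose by 1.81 ± 0.07, 1.28 ± 0.10 and 1.25 ± 0.07. In the Sap-1 shRNA cells the differences from control of Akr1c18, Aldh1a7, Aldh3a1 and Hsd11b1 were 1.03, 3.73, 0.46 and 0.065. Akr1c18 and Aldh1a7 have close relatives, whose signal may be shared. Of 138 prostaglandin, phospholipase and fatty acid genes 22 rose (15.9%, near the 13.4% over all genes) and 13 fell, but 21 rose and 30 fell with neighbours taken off. Lpl, lipoprotein lipase, rose by 1.16 ± 0.05; it is also an adipocyte marker, and of these 7 markers 2 rose, Lpl and Fabp4 (0.37 ± 0.07), and 1 fell, Pparg (-0.30 ± 0.07), while Adipoq differed by -0.091. Their summed level, which includes Lpl itself, was 10.11 to 10.17 in control arrays and 10.73 to 10.78 in Net shRNA arrays. That sum is thus not independent of the rise of Lpl, and the part of the other markers was not tested. Agmo, which cleaves ether lipids, rose from 5.29, 5.75 and 5.69 to 7.87, 8.06 and 7.99 (2.40 ± 0.11) and read 8.02, 7.85 and 7.95 in the Sap-1 shRNA arrays.

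In the cytoskeleton, microtubule genes of neurons showed the largest changes. Map2 read 8.56, 8.56 and 8.56 in the control arrays and 6.93, 6.97 and 6.98 in the Net shRNA arrays (-1.60 ± 0.04), and Tubb2b and Map1b fell (differences of -1.11 ± 0.06 and -0.59 ± 0.07). Map2 was higher than control in the Sap-1 shRNA arrays (9.27, 9.32 and 9.36). Of the 8 neural markers, which include Map2, Snap25 (-0.32 ± 0.05) and Tubb3 (-0.29 ± 0.07) fell as well and none rose, while the defining marker Rbfox3 differed by 0.059 and was not called. Without control replicate 1, Tubb3 no longer passed (-0.23, limma adjusted p = 0.076). The summed level of these neural markers, Map2 included, was 10.25 to 10.29 in control arrays and 9.83 to 9.88 in Net shRNA arrays. That sum is thus not independent of the fall of Map2, and the part of the other markers in the falls was not tested. Actin, myosin and smooth muscle genes moved little: 12 rose and 16 fell of 115, none by 1.5-fold, with neighbours taken off 30 fell, and Lmod1 and Pdlim2 fell (differences of -0.46 ± 0.06 and -0.45 ± 0.04).

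Genes that changed by at least 1.5-fold were also ranked by their level in the control arrays. Such a ranking favours genes that fell, so the balance of directions in it is no result. Of the 10 with the highest control levels, 8 fell: Lrp1, Thbs2, Svep1, Map1b and Atp1b1 as given above, Man2a1, a Golgi mannosidase, at -0.70 ± 0.05, Rassf8 at -0.70 ± 0.04, and the nuclear RNA Malat1. Malat1 read 13.05, 12.57 and 12.54 in the control arrays and 10.87, 11.56 and 11.59 in the Net shRNA arrays (-1.38 ± 0.19 (SE, adjusted p = 0.00035)), the widest spread of the group. Ccl2 and Hmox1 were those that rose. In the Net shRNA arrays the means of Ccl2, Adm and Hmox1 were 12.85, 12.65 and 12.62, above that of Lrp1 at 12.30.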

How the data were processed

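Per the labels, total RNA (0.1 ug) of NIH 3T3 cells was labelled and hybridised to Affymetrix Mouse Gene 1.0 ST arrays, and per the submitters' processing notes the values were made with RMA in Affymetrix Expression Console. The deposited table of the authors holds log2 values for 28815 probe sets in 9 arrays, 3 per group. Genome build and annotation version are not given in the sources used here. RMA shrinks differences of dim genes and assumes that most genes do not change.

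The symbols of the probe sets were taken from the GEO platform table: 21780 had 1 symbol, 1605 several and 5430 none. The brightest single-symbol probe set stood for a gene; 998 genes had several, and in 2 of these (Dlc1 and Zmpste24) probe sets were called in opposite directions. limma 3.58.1 (R 4.3.3) fitted a mean per group over all 9 arrays with moderated variances, and p-values were adjusted by Benjamini-Hochberg over 19935 genes. The labels do not say that replicates came from separate lines, so p-values measure only the spread between these samples. On simulated data of this comparison the fit over 19935 genes called 4%, 62%, 100% and 100% of genes changed by 1.1, 1.2, 1.5 and 2-fold, with 9 false calls. Only 50 genes were changed at each fold, against 4714 genes called in the data. The adjusted p depends on how many genes change, so these rates need not hold for the data.

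Genes named are Elk1, Elk3, Elk4 and Srf, and the 20 largest rises and falls without overlap (predicted, small RNA and chemosensory receptor genes passed over). Named too are up to 4 rises and 4 falls per family and 5 neighbours on each side of the 4 largest changes each way. The 10 called genes with the highest control levels among those changed by 1.5-fold follow, with the genes of the printed promoters. Runs of adjacent genes, Y genes, beta protocadherins and cell markers are named in addition. Families were defined by symbol, with 91 wrong matches removed. Genes, families and lists were chosen with earlier results of these data known. Alternatives changed the block, variance model, arrays, scaling, filters, probe sets, weights, neighbours, replicates and threshold. Chromosome and gene order came from RefSeq (GRCm38.p6), which 21689 probe sets matched. Protein sequences were not used here.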

Additional observations from a re-analysis of the deposited data

Results flagged for a closer look

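Probe sets outside the tested genes also carried differences. Of 1605 probe sets annotated to several symbols, 163 were higher and 89 lower in Net shRNA cells at an adjusted p under 0.05 (limma over all probe sets), with differences from -2.62 to 1.85. Of 5430 probe sets with no symbol, 239 were higher and 297 lower, from -1.38 to 2.09. They are unnamed here and entered no count above. No group held the 4 arrays needed for a search for outlying samples.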

How the results depend on the processing

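The count of genes that rose lay between 2077 and 2850 under the alternative fits, scalings and filters, and the count of those that fell between 1643 and 2599, each within 1.5 times the counts given. Leaving out 1 array in turn gave 2077 to 2592 higher and 1643 to 1979 lower. At an adjusted p under 0.01, 1856 rose and 1314 fell, and with a fold of at least 1.5 as well as the test 317 rose and 193 fell, which are stricter rules by construction. The share of calls that were rises moved from 56.9% to 49.8% with each array centred on its median, to 50% with quantile normalization, to 52.6% with cyclic loess and to 50.9% with neighbours taken off.

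The difference of Elk3 stayed between -0.44 and -0.36, with a largest adjusted p of 0.00025 (limma), and between -0.44 and -0.41 with 1 array left out. Of the 213 called genes named in the text, 204 kept direction and call under every alternative that tested them. With neighbours taken off, Cd68, Cdh1, Fat1, Irf2, Pdgfra and Pparg no longer passed. Cd68, Emcn, Pparg, Taf9b and Tubb3 missed an adjusted p of 0.01, and Cd68, Emcn, Taf9b and Tubb3 lost the call without 1 array. Taf9b also lost it with only the 6 arrays compared and after median centring. None reversed.

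Whether replicate numbers pair the arrays was not settled. Deviations of same-numbered Net shRNA and control arrays correlated at 0.255, 0.192 and -0.11, and those of differently numbered arrays at -0.281 to 0.15. A fit with the replicate number as a block gave 2782 higher and 2203 lower and changed no call among the named genes. The number of arrays limits what small differences can be read. The self-test called few genes changed by 1.1-fold, but it changed far fewer genes than were called in the data. Its rates are thus not those of the data, where 2151 called genes moved by less than 1.2-fold. Dim genes have compressed differences, and 43 of the 213 fell below the median level and were not tested under that filter.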
